A study of Rattus norvegicus with 9 samples.

Results

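Stathmins and growth cone proteins were examined here in rat ventral midbrain and in cultures grown from it. The members are the stathmin genes Stmn1, Stmn2, Stmn3 and Stmn4, the collapsin response mediator genes Crmp1, Dpysl2 and Dpysl3, and the genes Gap43 and Dcx. They were chosen by name, with earlier results of these data known. They are 9 of the 10411 genes that the array measures with a probe set of a single symbol. Together they have 12 such probe sets: 6 members have 1 and 3 members have 2. For each gene the probe set with the highest mean over all 9 arrays was used, and the further ones of Stmn2, Gap43 and Dcx served as a check.

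The study compared tissue with culture on Affymetrix rat arrays. MesE11 (3 arrays) is ventral midbrain dissected at embryonic day 11 and pooled by embryo group, without culture. MesPC (6 arrays) is primary culture of cells dissociated from such tissue and kept for 9 days in vitro. Per the labels, litters of 4 pregnant rats were combined into 3 embryo groups and cells were plated in duplicate, but no label says which group each culture array came from, and strain, sex and treatment are not given. The 6 culture arrays may therefore hold fewer than 6 independent cultures, and a p-value here reflects no more than the array-to-array spread. Both groups are mixtures of cells, so that fewer neurons and less RNA per neuron cannot be told apart.

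Stathmins bind tubulin dimers and promote the disassembly of microtubules, and phosphorylation switches this activity off. Stmn1 encodes the cytosolic founder protein, also abundant in dividing cells, whereas Stmn2 (SCG10), Stmn3 (SCLIP) and Stmn4 (RB3) encode membrane-anchored forms of neurons. Collapsin response mediators carry semaphorin signals to the cytoskeleton and bind tubulin, doublecortin stabilises microtubules in migrating young neurons, and GAP-43 is a membrane protein of the growth cone, the motile tip of a growing axon.

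Values are log2 intensities as the authors deposited them, a difference is MesPC minus MesE11 unless another is named, and it is given ± its standard error. A member was called changed at an adjusted p under 0.05, by limma with Benjamini-Hochberg adjustment over all 15866 tested probe sets. In culture 4 of the 9 members fell and 0 rose: Stmn2, Stmn3, Stmn4 and Dpysl3. Of these only Stmn4 and Dpysl3, 2 of 9, passed with a random block for like arrays, without any single tissue array or without MesPC replicate 1 or 3. The share of all genes called lower, at the same adjusted threshold, was 22.7% in the fit of all 9 arrays without a block, to which the 4 of 9 belongs. The share under the random block or without single arrays is not given, so the 2 of 9 has no share beside it. An unadjusted p under 0.05 (limma) was reached by 8 of the 9 members. The share of all genes at that looser limit is not given. It includes at least the 22.7% called lower and the 21.9% called higher at the adjusted threshold, so the count of 8 does not by itself set the members apart. For 8 members the 6 culture values all lay below the 3 tissue values, which was so for 23.3% of all genes, and Dpysl2 was the member whose groups overlapped. The median difference of the members was −0.77, against −0.06 over all genes.

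The culture arrays were not alike. Arrays numbered 1 to 3 and arrays numbered 4 to 6 formed separate sets, with correlations across probe sets of 0.997 to 0.998 inside each and 0.982 to 0.987 from one to the other. This division was noticed in the data, and the labels name nothing that parts the sets, so differences between them are given as a description with no test. All 9 members were higher on every array of the set 4 to 6 than on every array of the set 1 to 3, a pattern shown by 22.4% of all genes. For Stmn2, Stmn4, Gap43, Dcx and Crmp1 the set means differed at least 2-fold in this direction, as they did for 1.55% of all genes.

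**Figure D1:**
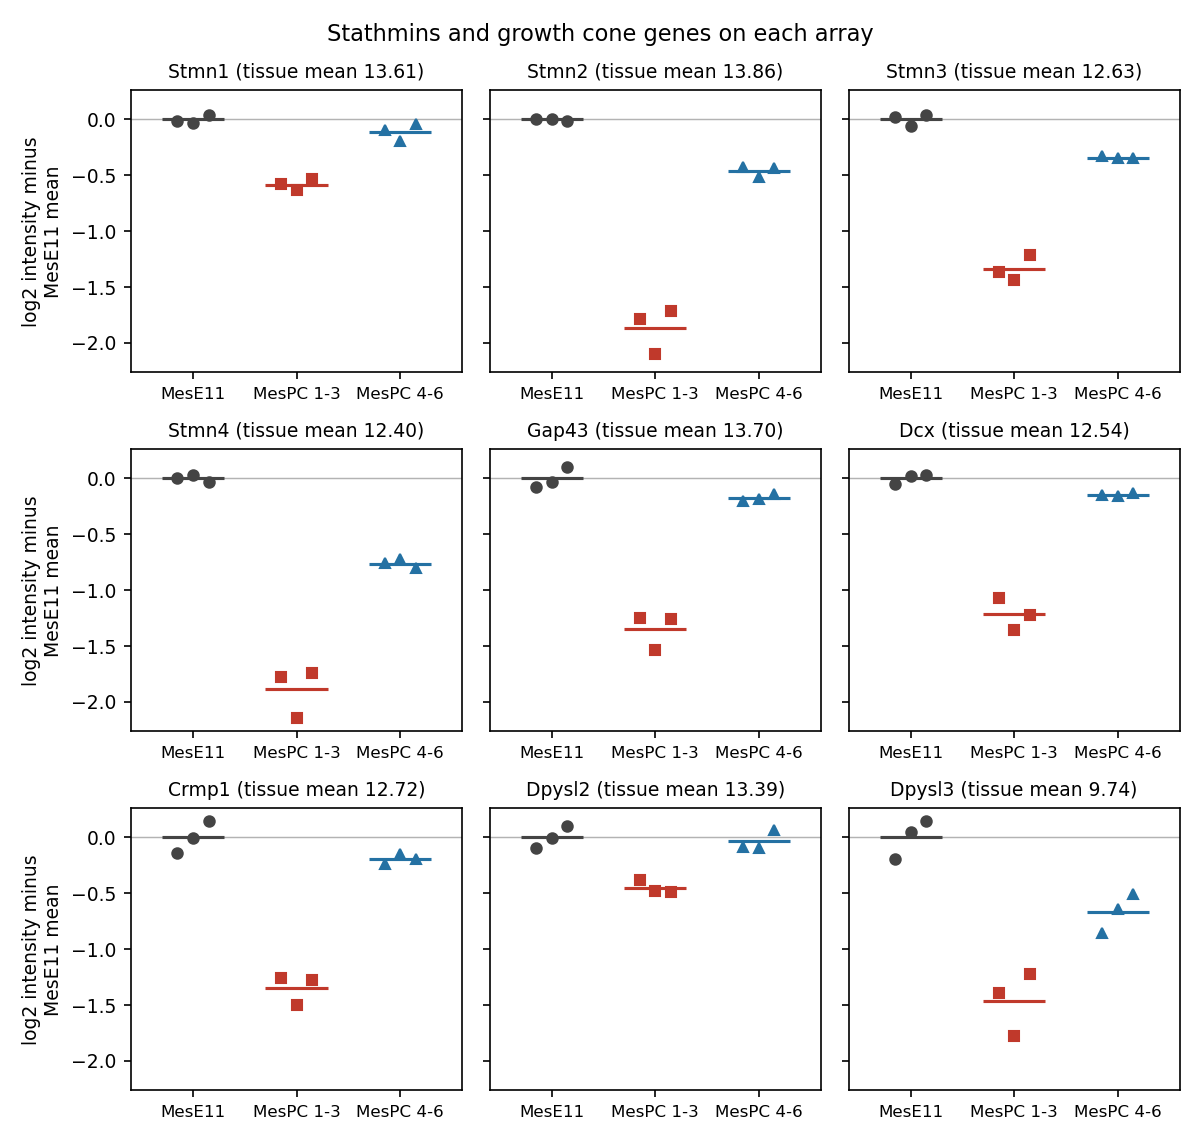
Log2 intensity of the brightest probe set of each of the 9 members minus its mean over the tissue arrays (vertical axes) on each array (points), for the 3 tissue arrays (MesE11), culture arrays 1 to 3 and culture arrays 4 to 6; lines mark the group means. In every panel culture arrays 1 to 3 are the lowest points, and for Dpysl2 alone culture points reach into the tissue range.

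Promoters of members from different branches of the group are shown because they differ in base composition and in the core promoter letters they hold. RefSeq windows on the rat assembly GRCr8, from 250 bases before to 50 bases after a gene's start, were found for 5 of the 9 members (Stmn1, Stmn3, Crmp1, Dcx and Dpysl3). The 250 bases before the start are printed 5′ to 3′ on the strand of the gene. They are Stmn1 at chr5:151964929-151965178 (plus strand), Crmp1 at chr14:77780917-77781166 (minus strand) and Dcx at chrX:112304162-112304411 (minus strand). Capitals mark an E2F-type match in Stmn1, GC boxes in Crmp1 and a TATA box in Dcx.
Stmn1: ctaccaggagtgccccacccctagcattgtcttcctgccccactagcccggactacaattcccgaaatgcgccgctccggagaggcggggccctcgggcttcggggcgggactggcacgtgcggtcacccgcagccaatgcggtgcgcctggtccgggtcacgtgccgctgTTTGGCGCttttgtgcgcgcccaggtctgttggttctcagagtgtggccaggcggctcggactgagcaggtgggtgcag
Crmp1: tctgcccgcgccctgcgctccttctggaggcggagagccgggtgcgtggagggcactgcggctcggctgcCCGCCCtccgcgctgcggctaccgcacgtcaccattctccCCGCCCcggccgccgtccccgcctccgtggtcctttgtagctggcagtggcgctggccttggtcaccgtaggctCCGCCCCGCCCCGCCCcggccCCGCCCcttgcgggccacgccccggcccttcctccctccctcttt
Dcx: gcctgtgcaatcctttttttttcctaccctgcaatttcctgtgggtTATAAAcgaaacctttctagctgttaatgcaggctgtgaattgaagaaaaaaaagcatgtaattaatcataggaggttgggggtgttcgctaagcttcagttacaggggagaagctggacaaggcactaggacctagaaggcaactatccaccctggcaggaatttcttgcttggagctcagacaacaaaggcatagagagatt
The whole windows held 68.3% G and C in Stmn1, 77.7% in Crmp1 and 45.0% in Dcx, and the median over all windows was 51.7%.

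Motifs were searched on both strands of the whole windows: the E-box CANNTG, the promoter box with the letters CCAAT, the GC box with GGGCGG, the TATA box with TATAAA and the E2F-type letters TTTGGCGC, TTTCCCGC, TTTCGCGC or TTTGCCGC. Of 33469 windows of this length, 72.1% held an E-box, 37.5% CCAAT, 33.1% a GC box, 14.2% TATAAA and 2.14% an E2F-type match. In Stmn1 TTTGGCGC began at position −79 from the start, beside 3 E-boxes, 1 CCAAT and 1 GC box. E2F factors are known for their sites in genes of the cell cycle. In Crmp1 the GC box occurred 6 times, on the reverse strand and thus printed as CCGCCC, 3 of them overlapping by 1 base in a row. In Dcx TATAAA began at position −204, whereas TATA boxes in use usually lie close to the start. The Dcx window also held 1 CCAAT, on the reverse strand. The Stmn3 window held 1 E-box and 1 GC box. Dpysl3 had more than 1 window, with 2 E-boxes and 1 GC box in 1 and with 1 E-box and 3 GC boxes in another. A match describes the letters and not a site in use, and no binding was measured.

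The 4 stathmin genes differed in how far they lay below tissue. Stmn2, the axonal form that responds to nerve growth factor, read 13.86, 13.86 and 13.85 on the tissue arrays, 12.07, 11.76 and 12.14 on culture arrays 1 to 3 and 13.43, 13.34 and 13.42 on culture arrays 4 to 6. All culture arrays were below tissue, those of the first set by far more than those of the second. The fall was −1.16 ± 0.39, or 2.24-fold (limma, adjusted p = 0.0381), and the set 4 to 6 was 1.41 above the set 1 to 3 (pooled SD 0.15 within sets, 2.65-fold). Its further probe set gave the same picture, with tissue at 13.11, 13.08 and 13.03, culture at 11.32, 10.89 and 11.33 and then 12.65, 12.59 and 12.64, and a fall of −1.17 ± 0.41 (adjusted p = 0.0425).

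Stmn4, a brain form of stathmin, read 12.40, 12.43 and 12.38 in tissue, 10.63, 10.26 and 10.66 on culture arrays 1 to 3 and 11.65, 11.68 and 11.60 on arrays 4 to 6. No culture array came near tissue: the highest was 0.69 below the lowest tissue array. Stmn4 fell by 1.32 ± 0.32, or 2.50-fold (limma, adjusted p = 0.00880), and the sets differed by 1.13 (pooled SD 0.16). Stmn3 read 12.65, 12.57 and 12.67 in tissue, 11.27, 11.20 and 11.42 on arrays 1 to 3 and 12.30, 12.28 and 12.28 on arrays 4 to 6. The culture arrays were again all below tissue, in separate bands. Its fall was −0.84 ± 0.28, or 1.79-fold (limma, adjusted p = 0.0351), with 0.99 between the sets (pooled SD 0.08).

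Stmn1, the form shared with dividing cells, read 13.59, 13.58 and 13.65 in tissue, 13.03, 12.97 and 13.07 on arrays 1 to 3 and 13.51, 13.41 and 13.56 on arrays 4 to 6. The groups did not overlap, but by a gap of only 0.017 log2 units. The difference of −0.35 ± 0.14 did not pass (limma, adjusted p = 0.0681), and the sets differed by 0.47 (pooled SD 0.064). The differences between these 4 genes were not tested against each other.

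The calls of Stmn2 and Stmn3 depended on how the culture arrays were treated. With the random block neither passed (adjusted p = 0.0546 for Stmn2 and 0.0514 for Stmn3), nor without any single tissue array or without MesPC replicate 1 or 3 (0.0649 to 0.104 and 0.0578 to 0.105). Stmn4 and Dpysl3 passed in every alternative run.

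Of the 3 collapsin response mediators, Dpysl3 fell and the others did not pass. Dpysl3 (CRMP4), an actin-bundling member active in outgrowing axons, read 9.55, 9.79 and 9.89 in tissue, 8.35, 7.96 and 8.52 on culture arrays 1 to 3 and 8.88, 9.10 and 9.24 on arrays 4 to 6. Every culture array was below tissue, and within tissue and within each culture set its arrays were more scattered than those of any other member. Its fall was −1.06 ± 0.25, or 2.09-fold (limma, adjusted p = 0.00801), and the sets differed by 0.80 (pooled SD 0.24).

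Crmp1, a mediator of semaphorin 3A and reelin signals, read 12.59, 12.72 and 12.87 in tissue, 11.47, 11.23 and 11.45 on arrays 1 to 3 and 12.48, 12.58 and 12.53 on arrays 4 to 6. The second set almost met tissue, with its highest array 0.0082 below the lowest tissue array. The difference of −0.77 ± 0.32 did not pass (limma, adjusted p = 0.0800), while the sets differed by 1.15 (pooled SD 0.10), 2.22-fold. Dpysl2 (CRMP2), which carries tubulin dimers and is needed to specify the axon, read 13.30, 13.38 and 13.49 in tissue, 13.01, 12.91 and 12.90 on arrays 1 to 3 and 13.31, 13.30 and 13.46 on arrays 4 to 6. Arrays 4 to 6 lay within the tissue range and arrays 1 to 3 beneath it. The difference was −0.24 ± 0.13 (limma, adjusted p = 0.151), and the sets differed by 0.41 (pooled SD 0.077).

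Gap43 and Dcx resembled Crmp1. Gap43 read 13.62, 13.67 and 13.80 in tissue, 12.45, 12.16 and 12.44 on arrays 1 to 3 and 13.49, 13.51 and 13.56 on arrays 4 to 6, so that the second set ended 0.060 below tissue. The difference was −0.76 ± 0.33 (limma, adjusted p = 0.0868), and the sets differed by 1.17 (pooled SD 0.12), 2.25-fold. A further Gap43 probe set stayed between 4.87 and 4.93 on all 9 arrays, inside the 4.87 to 6.56 of the mean levels of bacterial control probe sets, and so bears on neither comparison.

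Dcx, a gene of young migrating neurons that is shut off as they mature, read 12.49, 12.57 and 12.57 in tissue, 11.47, 11.19 and 11.32 on arrays 1 to 3 and 12.40, 12.39 and 12.41 on arrays 4 to 6. All culture arrays were below tissue, the second set by a narrow gap of 0.083. The difference was −0.68 ± 0.30 (limma, adjusted p = 0.0910), and the sets differed by 1.07 (pooled SD 0.10), 2.10-fold. Its further probe set was much dimmer and showed another pattern, with 7.73, 7.95 and 7.95 in tissue, 7.19, 7.42 and 7.36 on arrays 1 to 3 and 7.18, 7.42 and 7.23 on arrays 4 to 6. On it the culture sets overlapped (difference −0.046), and the fall in culture passed, at −0.57 ± 0.081 (limma, adjusted p = 4.3e-04). The mean of both Dcx probe sets also passed (−0.63, adjusted p = 0.00713).

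Set against the same tissue arrays, each culture set gave its own result. With arrays 1 to 3 alone all 9 members were called lower (27.0% of all genes were), from −0.45 ± 0.069 for Dpysl2 (limma, adjusted p = 4.0e-04) to −1.89 ± 0.10 for Stmn4 (adjusted p = 3.4e-07), with a median of −1.34 against −0.04 over all genes. In this set Stmn2 was 3.64-fold lower than tissue, Gap43 2.54-fold, Crmp1 2.54-fold and Dcx 2.32-fold. Within the set MesPC replicate 2 was the lowest array for 8 of the 9 members, where it was the lowest for 36.2% of all genes.

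With arrays 4 to 6 alone 4 of 9 members were called lower (27.2% of all genes), again Stmn2, Stmn3, Stmn4 and Dpysl3, and the median was −0.19 against −0.05 over all genes. Stmn4 fell by 0.76 ± 0.065 (limma, adjusted p = 4.3e-06), Dpysl3 by 0.67 ± 0.11 (4.7e-04), Stmn2 by 0.46 ± 0.066 (2.1e-04) and Stmn3 by 0.34 ± 0.066 (0.00155). Gap43 (−0.17 ± 0.072, adjusted p = 0.0654), Crmp1 (−0.19 ± 0.081, 0.0694), Dcx (−0.15 ± 0.065, 0.0838), Stmn1 (−0.11 ± 0.070, 0.200) and Dpysl2 (−0.035 ± 0.078, 0.726) did not pass. Both fits share the tissue arrays, so their values are not independent.

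**Figure D2:**
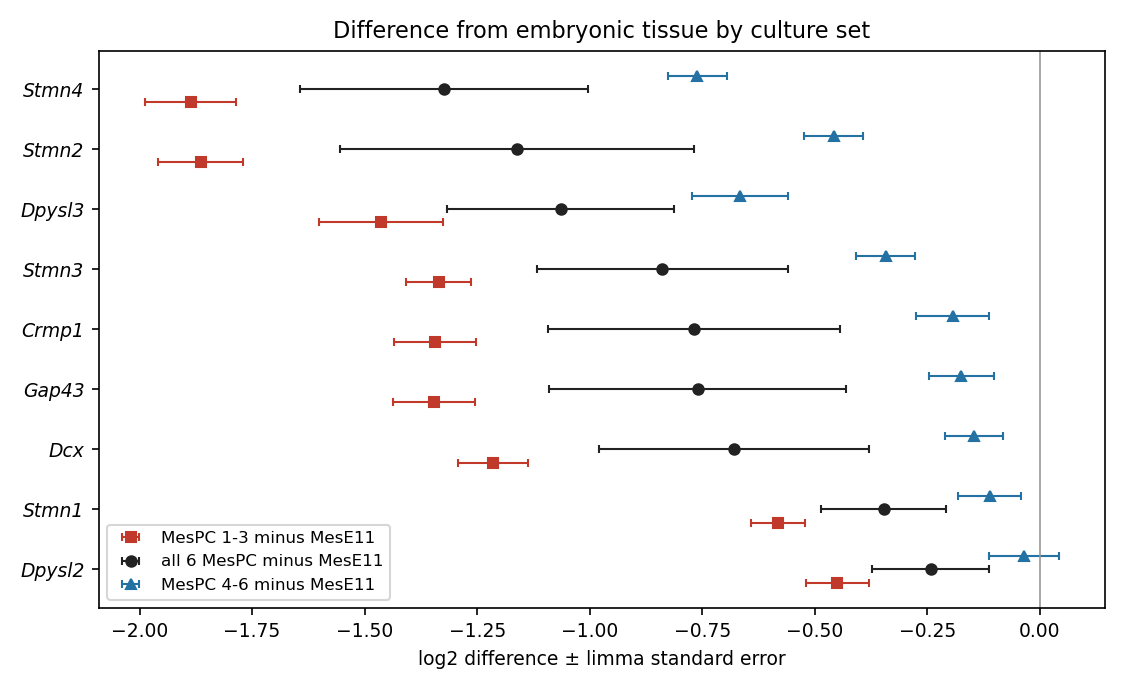
Log2 difference from the 3 tissue arrays (horizontal axis) for each member (vertical axis), for all 6 culture arrays (black) and with culture arrays 1 to 3 (red) and 4 to 6 (blue) fitted separately; bars are standard errors from limma. Arrays 1 to 3 lie farther from 0 for all 9 members, and the gap is widest for Stmn2 (−1.86 against −0.46).

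Neuron markers other than the members moved alongside them. Of 12 measured (of 15 listed), 5 fell in culture and 0 rose (22.7% and 21.9% of all genes), with a median difference of −0.94. Nefm and Nefl, neurofilament subunits, fell by 2.05 ± 0.25 and 1.59 ± 0.34, Ina, another neuronal filament, by 1.44 ± 0.42 and Rbfox3, the NeuN splicing factor, by 1.01 ± 0.19 (limma, highest adjusted p = 0.0218). The call of Ina ended without any single tissue array, and a further Rbfox3 probe set of like brightness differed by −0.22 ± 0.18 and did not pass (adjusted p = 0.349). Tubb3, the neuronal tubulin, differed by −0.83 ± 0.33 and did not pass (adjusted p = 0.0662). By their brightest probe sets all 12 were higher on every array of the set 4 to 6 than on every array of the set 1 to 3. This was so for 22.4% of all genes, and the median of the 12 markers between the sets was 1.15. Dimmer further probe sets of Tubb3 (−0.12) and Ncam1 (−0.16) went the other way between the sets, and those of Map2, Mapt, Nefl, Ina and Rbfox3 the same way. Their mean level was 11.82 to 11.92 on the tissue arrays, 10.19 to 10.42 on culture arrays 1 to 3 and 11.39 to 11.43 on arrays 4 to 6. Their part in the members' differences was not tested.

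**Figure D3:**
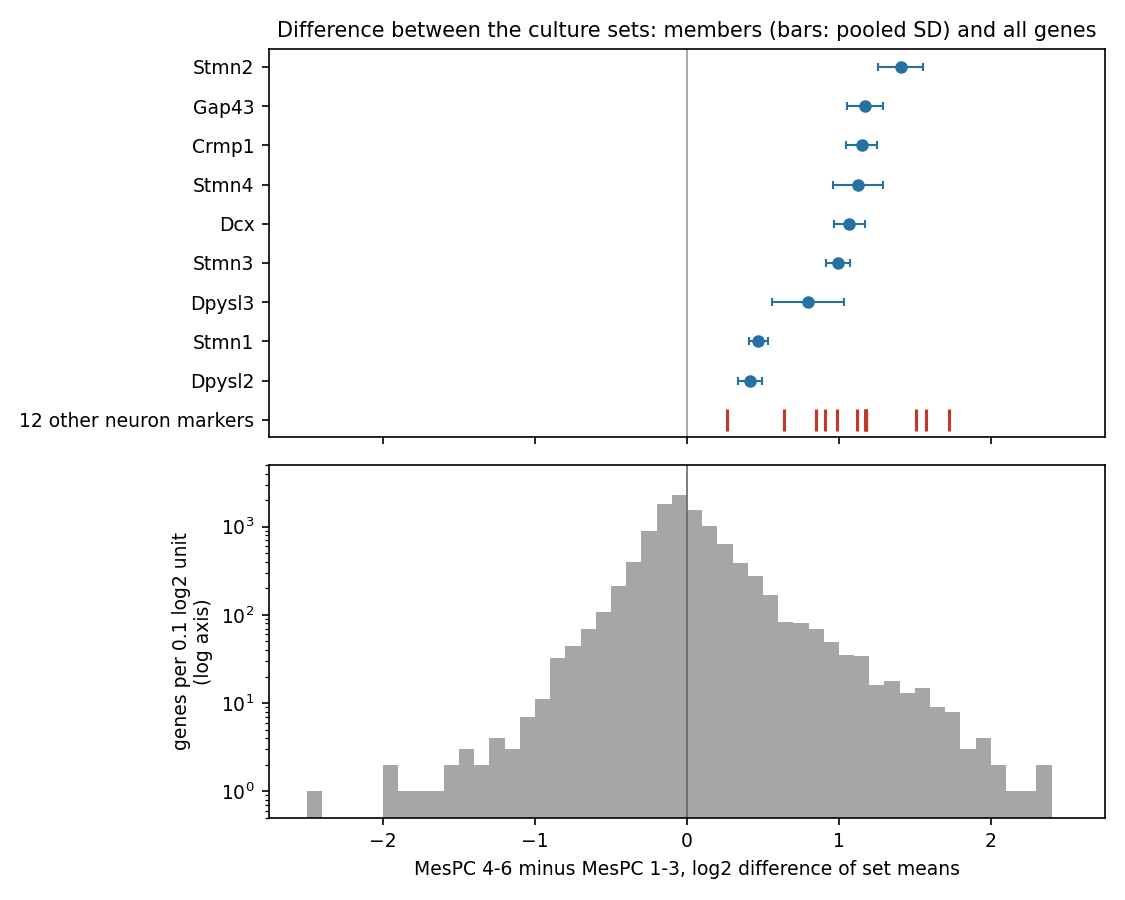
Difference of set means, culture arrays 4 to 6 minus arrays 1 to 3 (horizontal axes, log2), for the 9 members (points, bars are the pooled SD within sets) and the 12 other neuron markers (red ticks) above, and for all 10411 genes below (bars, genes per 0.1 log2 unit on a log axis). Members run from 0.41 for Dpysl2 to 1.41 for Stmn2, in the right tail of a distribution with a median of −0.03.

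To describe the members beside these markers, the mean of the brightest probe sets of the 12 markers was subtracted from each member on the same array. On this scale, which is a ratio to the markers and no level, the members parted. Stmn1 was 0.95 above its tissue value on arrays 1 to 3 and 0.33 above on arrays 4 to 6, and Dpysl2 1.08 and 0.41. Stmn4 was lower on both sets, by −0.35 and −0.32, and Stmn2 by −0.33 on the first set and −0.017 on the second.
Dcx was higher by a like amount on both (0.32 and 0.30), as were Gap43 (0.19 and 0.27) and Crmp1 (0.19 and 0.25). Stmn3 was at 0.20 and 0.098 and Dpysl3 at 0.069 and −0.23. The choice of markers set part of this. Without the 3 neurofilament genes, an alternative chosen after the data were seen, the marker mean changed by −1.28 and −0.22 in place of −1.53 and −0.44. Stmn1 (0.70 and 0.11) and Dpysl2 (0.83 and 0.19) then stayed higher and Stmn4 (−0.61 and −0.54) lower on both sets, as were Stmn2 (−0.59 and −0.24) and Dpysl3 (−0.18 and −0.44). Stmn3 turned to −0.057 and −0.12, while Gap43 (−0.067 and 0.048), Crmp1 (−0.06 and 0.029) and Dcx (0.064 and 0.077) came near 0. With Tubb3 alone as the marker, likewise added later, Stmn1 (0.83 and 0.13) and Dpysl2 (0.96 and 0.20) were again higher and Stmn4 (−0.47 and −0.52) and Stmn2 (−0.45 and −0.22) lower on both sets.

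**Figure D4:**
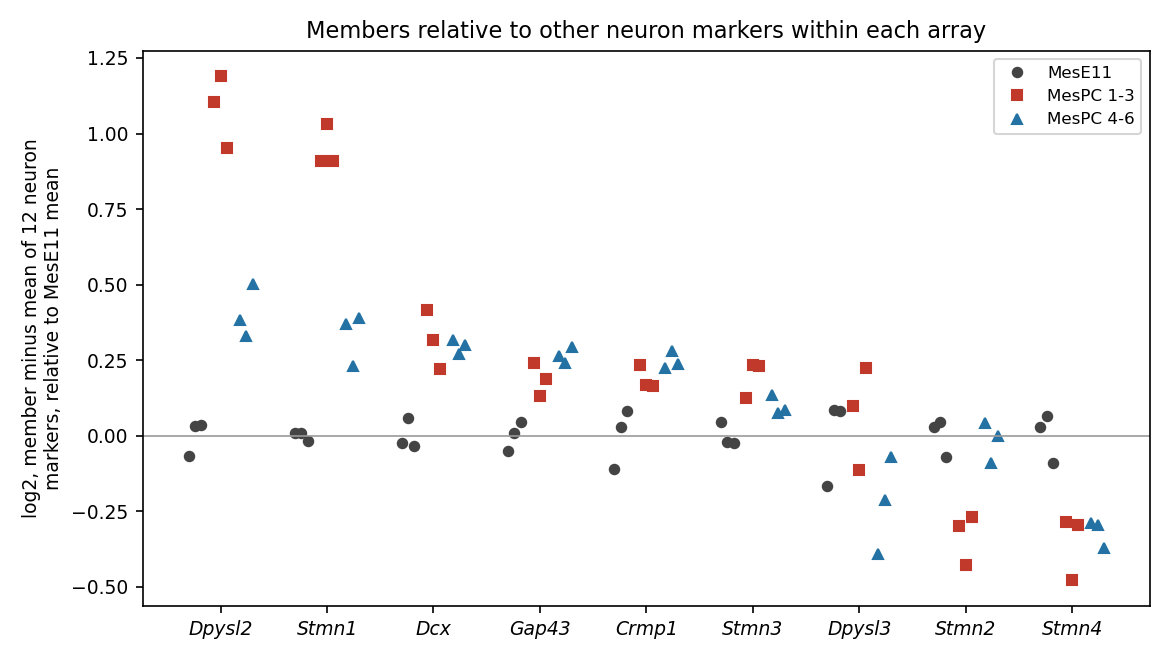
Each member minus the mean of the 12 neuron markers on the same array, shown as the log2 difference from its tissue mean (vertical axis) for each member (horizontal axis) and array (points). With these markers Stmn1, Dpysl2, Dcx, Gap43, Crmp1 and Stmn3 lie above tissue on all culture arrays, Stmn1 and Dpysl2 by the most on arrays 1 to 3. Stmn4 lies beneath tissue on all culture arrays.

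Partners of the members were counted from lists of the pathway. Of 33 further growth cone and axon outgrowth genes measured (of 37 listed), 9 fell and 5 rose (22.7% and 21.9% of all genes), with a median difference of −0.19. The lower count was 4 with the random block, 5 without MesE11 replicate 1 and 4 without MesE11 replicate 3. Tmod2, a neuronal tropomodulin that caps actin filaments, fell by 1.12 ± 0.14 (limma, adjusted p = 1.9e-04). Dpysl4 (CRMP3) fell by 0.88 ± 0.22, Basp1, a growth cone membrane protein like GAP-43, by 0.83 ± 0.27 (no longer passing without any single tissue array or MesPC replicate 1 or 3) and Robo2, a receptor for Slit guidance cues, by 0.62 ± 0.11. Ntn1, the guidance cue netrin 1, rose by 1.39 ± 0.072 (limma, adjusted p = 6.1e-07), and Cyfip1, part of the actin-regulating WAVE complex, by 0.80 ± 0.10. Dpysl5 (CRMP5) differed by −0.48 ± 0.29 and did not pass (adjusted p = 0.199). Culture arrays 4 to 6 were all above arrays 1 to 3 for 21 of the 33 and all below for 3 (22.4% and 26.0% of all genes).

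Among 10 measured relatives and partners of doublecortin (of 13 listed), 2 fell and 2 rose by their brightest probe sets, near the 22.7% and 21.9% of all genes, and over the mean of each gene's probe sets 1 fell and 1 rose. The lower count was also 1 with the random block and without any single tissue array or any 1 of MesPC replicates 1 to 3, and the higher count was 1 without MesE11 replicate 2 or 3. Pafah1b3 and Pafah1b2, catalytic subunits of the acetylhydrolase that binds Lis1, fell by 1.07 ± 0.24 and 0.42 ± 0.15 (limma, adjusted p = 0.00618 and 0.0447). A further Pafah1b2 probe set differed by −0.16 ± 0.10 and did not pass (adjusted p = 0.216). Nde1, a Lis1 partner of dividing progenitors, rose by 0.69 ± 0.20 (adjusted p = 0.0204). Dclk1, the doublecortin-like kinase, had probe sets in opposite directions: the brightest rose by 0.83 ± 0.094 (adjusted p = 9.5e-05), a further one fell by 1.25 ± 0.35 (adjusted p = 0.0179), and the last differed by −1.16 ± 0.44 (adjusted p = 0.0549). The mean of the 3 Dclk1 probe sets was −0.52 (adjusted p = 0.151), so no direction is given for the gene. The further Dclk1 sets were 1.24 and 1.55 higher on culture arrays 4 to 6 than on arrays 1 to 3, and the brightest 0.25.

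Kinases and phosphatases that act on stathmins or collapsin response mediators came from a list of 26, of which 23 were measured, and 6 fell and 3 rose (22.7% and 21.9% of all genes). The lower count was 3 with the random block and 3 without any single tissue array. Camk2b, a neuronal calmodulin kinase, fell by 0.96 ± 0.33 (limma, adjusted p = 0.0409), Cdk5r1, the p35 activator of Cdk5, by 0.86 ± 0.16, Ppp2ca, the catalytic subunit of PP2A, by 0.79 ± 0.16 and Mapk8, the kinase JNK1, by 0.65 ± 0.21. The calls of Camk2b and Mapk8 ended with the random block and without any single tissue array, and also without MesPC replicate 1, that of Camk2b without replicate 2 or 3 as well. Aurkb and Cdk1, mitotic kinases that phosphorylate stathmin, rose by 2.50 ± 0.21 and 1.81 ± 0.23 (limma, highest adjusted p = 2.1e-04), and both also belong to the proliferation list. No protein or phosphorylation was measured.

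Markers of most other cell types listed moved between the groups too. Of all genes 21.9% were called higher and 22.7% lower. Proliferation genes rose in 13 of 16 cases and fell in 0. Their mean level was 8.77 to 8.89 in tissue, 10.05 to 10.14 on arrays 1 to 3 and 9.48 to 9.64 on arrays 4 to 6. On every array of the set 4 to 6, 14 of the 16 were lower than on arrays 1 to 3 (26.0% of all genes). Fibroblast and smooth muscle genes rose in 12 of 15 cases and fell in 1, with mean levels of 7.88 to 8.03 in tissue, 9.91 to 9.99 on arrays 1 to 3 and 9.66 to 9.73 on arrays 4 to 6. Of neural progenitor genes 8 of 11 rose and 1 fell, with 10.34 to 10.68 in tissue, 11.31 to 11.39 on arrays 1 to 3 and 11.15 to 11.17 on arrays 4 to 6. Astrocyte genes rose in 6 of 10 cases, with 9.34 to 9.58 in tissue and 10.17 to 10.42 over both culture sets. In the oligodendrocyte lineage 2 of 8 rose and 1 fell, near or under the shares of all genes. Endothelial genes fell in 6 of 7 cases, erythroid genes in 7 of 7 and microglia genes in 7 of 10, with 0 higher in these 3 lists. The part of these other cells in the members' differences was not tested.

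Genes with the profile most like each member were found over the 9 arrays, as the smallest root mean square difference of log2 values centred on each gene's mean. For Gap43 it was a fellow member, Crmp1, at 0.0386, then Retreg1, a receptor for turnover of the endoplasmic reticulum, at 0.0474 and Tubb3 at 0.0709. For Crmp1 the order was Gap43, Retreg1 (0.0455) and Tubb3 (0.0824). Dcx lay nearest to Vopp1 (0.0525), Retreg1 (0.0726) and the kinesin gene Kif3c (0.0759). Stmn2 lay nearest to Magee1 (0.0730), Snap91, a clathrin assembly protein of synapses (0.0760), and Fgf13 (0.0761), and Stmn3 to Dnm1, the dynamin of synaptic vesicle uptake (0.0540), Pkia (0.0561) and Mllt11 (0.0601).
Stmn4 had Pbx3 (0.0912), Pdzd4 (0.0928) and Sh2b2 (0.0975). Stmn1 had Atp6v1b2, a subunit of the vacuolar proton pump (0.0421), Mllt6 (0.0542) and Kcnmb4 (0.0544), and Dpysl2 had the calmodulin gene Calm2 (0.0439), the dynein chain gene Dync1i2 (0.0445) and Slc39a10 (0.0498). Dpysl3 had no near neighbour of this kind, with Madd at 0.138, Rbfox3 at 0.139 and Sgip1 at 0.140. The measure is a description over arrays that share their group and set, and small changes bring small distances.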

How the data were processed

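Expression was measured on 9 arrays. The values are log2 intensities that the authors deposited. The submitters' processing notes name RMA without a version. It brings the arrays to nearly one distribution, so differences are relative to the other probe sets of an array. Scanner files were not used here. Of 15923 probe sets, 57 Affymetrix controls were left out and 15866 tested; 12783 had 1 symbol in the array annotation, for 10411 genes. The 9 member symbols all matched RefSeq GRCr8, which gave the promoters.

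limma 3.58.1 in R 4.3.3 (lmFit, eBayes) compared MesPC with MesE11, two-sided, with Benjamini-Hochberg adjustment over all tested probe sets and a threshold of 0.05. Precision is limited by the number of arrays. The fit was tested on simulated data with independent arrays and no culture sets, so that test does not bear on the division of the culture arrays. Tables and plots used Python 3.11.15, pandas 2.3.3 and matplotlib 3.10.9. Members and lists were chosen with earlier results of these data known, and the motifs and the promoters to show after the sequences were seen.

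Named were all members and their probe sets. From each pathway and marker list the rule took up to 4 called genes with the largest difference in the commoner direction and up to 2 in the other, where culture and tissue did not overlap, and for each member the 3 nearest profiles without predicted loci. For the lists of other cell types counts and, for some, mean levels are given in place of single genes, and Tubb3 and Dpysl5 were added after their values were seen. Alternatives were renewed quantile normalization, centring on all probe sets or on the 46 of ribosomal proteins, a filter on the dimmest 40%, means over or single further probe sets, a variance trend, array weights, random and replicate blocks, separate culture sets and leaving out each array. Replicate numbers 1 to 3 occur in both groups.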

Additional observations from a re-analysis of the deposited data

Results flagged for a closer look

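Among 63 probe sets examined for a single array standing apart within MesPC, 1 was found, where chance marks about 1 in 20 groups. MesPC replicate 6 read 10.58 for Mlc1, an astrocyte marker, and the other 5 culture arrays read 10.76 to 10.80. No member's probe set was marked, though the division into sets widens the range against which a single array is judged.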

How the results depend on the processing

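Stmn4 and Dpysl3 kept their calls under all alternatives, and no member's difference from tissue changed sign. The members called lower, 4 with the values as deposited, were 9 with array weights, with the culture sets as separate groups, with arrays 1 to 3 alone and with the replicate block, 2 with the random block (Stmn4 and Dpysl3), and 2 to 5 without single arrays. Of all genes 22.7% were called lower as deposited and 27.0% with arrays 1 to 3 alone. For the other runs named here the share is not given, so their counts do not set the members apart from other genes. The following differences passed only under alternatives, given in the order array weights, sets as separate groups, arrays 1 to 3 alone: Stmn1 −0.47, −0.35 and −0.58 (and −0.38 with median centring), Gap43 −1.06, −0.76 and −1.35, Dcx −0.97, −0.68 and −1.21 (and −0.63 over both probe sets and −0.57 on the further one), Crmp1 −1.06, −0.77 and −1.34, and Dpysl2 −0.33, −0.24 and −0.45. With the random block Stmn2 (−1.16) and Stmn3 (−0.84) did not pass. Treating the sets as separate groups takes their difference out of the residual spread; other causes were not tested.

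Without single arrays the differences ran from −0.41 to −0.29 for Stmn1 (passing without MesPC replicate 4 or 6), −1.31 to −0.97 for Stmn2, −0.94 to −0.72 for Stmn3 and −0.89 to −0.62 for Crmp1 (passing without MesPC replicate 5). The labels state no pairing by replicate number. Deviations from the group means of same-numbered arrays correlated at −0.086 to 0.017, but for culture these deviations hold the division into sets. Taken from the means within sets, they correlated at −0.12 to 0.084. Which embryo group each culture array came from remains unknown. The replicate block uses MesPC 1 to 3 only in effect and gave −0.58 for Stmn1, −1.35 for Gap43, −1.21 for Dcx, −1.34 for Crmp1 and −0.45 for Dpysl2.

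Further growth cone genes called lower, 9 as deposited, were 18 with array weights, 4 with the random block, 17 with separate sets, 20 with arrays 1 to 3 alone, 19 with the replicate block and 4 to 12 without single arrays, and those called higher, 5, were 8 with arrays 4 to 6 alone. Doublecortin partners called lower, 2, were 4 with array weights, 5 with separate sets, arrays 1 to 3 alone or the replicate block, 1 with ribosomal centring, the random block or probe set means, and 1 to 3 without single arrays, and those called higher, 2, were 1 with probe set means and 1 to 2 without single arrays. Kinases and phosphatases called lower, 6, were 10 with array weights, 3 with the random block, 13 with separate sets, 11 with arrays 1 to 3 alone or the replicate block, and 3 to 8 without single arrays. Shares of all genes under these alternatives are not given, other than those called lower with 1 culture set alone (27.0% with arrays 1 to 3 and 27.2% with arrays 4 to 6). Dclk1 turned to −0.52 over the mean of its probe sets.

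Between the culture sets, ribosomal centring gave 0.60 for Stmn1, 1.12 for Stmn3, 1.30 for Gap43, 1.20 for Dcx, 1.28 for Crmp1 and 0.54 for Dpysl2, and renewed quantile normalization 0.91 for Stmn3. Over the mean of the probe sets Gap43 gave 0.58 and Dcx 0.51, and the further sets alone turned to −0.0055 and −0.046. Of the values of single listed genes and marker ratios under alternatives, 1648 stayed within their limits, 102 gained a call, 77 lost one, 35 marker ratios moved by more than their spread, and the called value of Dclk1 turned.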

Other observations

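Adhesion molecules of the axon surface, singled out with their values known, took different positions relative to tissue. Ncam1, the neural cell adhesion molecule, averaged 9.69 on culture arrays 1 to 3, 10.45 in tissue and 10.87 on culture arrays 4 to 6 by its brightest probe set. It was thus 0.75 below tissue in the first set (limma, adjusted p = 6.2e-05) and 0.42 above it in the second (0.00204), and over all culture arrays the difference was −0.17 ± 0.33 (0.699). By their brightest probe sets Nrcam and Nfasc, of the L1 family, were 0.37 and 0.38 above tissue on arrays 4 to 6 (adjusted p = 0.00386 and 0.00394) and at −0.13 and −0.076 on arrays 1 to 3 (0.295 and 0.556). L1cam, of the same family, was at −1.60 on arrays 1 to 3 (5.7e-07) and −0.15 on arrays 4 to 6 (0.148), and Cntn2, a contactin, at −0.49 and −0.29 (0.00126 and 0.0128).

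No further probe set of these genes lay above tissue on arrays 4 to 6. There the further set of Ncam1 was at −0.24 (limma, adjusted p = 0.0530), those of Nfasc at −0.14 and −0.18 (0.104 and 0.161) and that of Nrcam at −0.045 (0.610). On arrays 1 to 3 the further Nrcam set was at −0.87 (5.0e-05). The position above tissue thus rests on the brightest probe set of each gene, and no direction is given for Ncam1, Nrcam or Nfasc on arrays 4 to 6.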
